A study of Homo sapiens with 21 samples.

Results

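Open chromatin was compared between 6 edited lines, pooled, and the unedited line they were made from, in microglia-like cells. The starting cells were H9, a widely used line of human embryonic stem cells. The members were chosen by their labels: 18 libraries of the edited lines and 3 libraries of WT, which together make up all 21 libraries of the series. The edited lines were TREM2-R47H and TREM2-KO (TREM2 is a lipid-sensing receptor of microglia), SORL1-A528T and SORL1-KO (SORL1 sorts cargo in endosomes), CD33 SNP (CD33 is an inhibitory sialic acid receptor) and INPP5D SNP (INPP5D is an inositol phosphatase that dampens immune receptor signalling), with 3 libraries each. Every edit is labelled homozygous and was made with Cas9, a guide and a repair template in selected clones, and the protocol gives the SORL1-KO allele as SORL1 R744X. H9 itself carries 1 A allele at the INPP5D variant, so WT was heterozygous there and the INPP5D SNP line was converted to A on both copies. All lines, WT included, went through haematopoietic progenitors and 28 days with IL-34, TGFβ1 and M-CSF, the last 3 days with CD200 and CX3CL1 added, and 80000 sorted cells per line entered Omni-ATAC, a form of ATAC-seq, where a transposase inserts adapters into open DNA.

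WT is a single line, so a difference between the edited lines and WT cannot be told apart from a property of this WT line, and every comparison of an edited line with WT uses the same 3 WT libraries. Whether the 3 replicates of a line were differentiated separately is not in the labels, so a p-value here reflects library spread that could be technical alone. The tests take single libraries as units, and the 18 edited libraries come from 6 lines and from replicate numbers of unlike depth. They are therefore not 18 independent samples of an edited state. The libraries titled SORL1-A528T carry a genotype label that reads TREM2-KO, and statements on that line concern the libraries so titled.

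Accessible DNA marks promoters and enhancers, the stretches that transcription factors bind. In microglia and other myeloid cells the factor PU.1, encoded by SPI1, opens much of the lineage's enhancer set together with IRF8, RUNX1, C/EBP and MEF2 factors. ATAC-seq reads which of these elements are open, and a peak list records only whether an element passed the caller's threshold, not how open it was.

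Depth differed between replicate numbers. Replicate 1 had 56470345 to 67369215 tags in the edited lines and 65373112 in WT. Replicate 2 was the shallow one in every line, with 12754426 to 17462372 tags in the edited lines and 15464506 in WT. Replicate 3 had 32597739 to 52855714 tags in the edited lines and 48456426 in WT. Of each replicate number, the list titled SORL1-A528T gave the lowest likeness to other lines. TREM2-KO replicate 2 held 67861 peaks from 15813726 tags, the most of any replicate 2 list, with the lowest gene-end share among them. Among replicate 2 lists peak number did not follow tags alone. SORL1-KO had the fewest tags, 12754426, and 58237 peaks, while WT had 46991 peaks. The fragment length in the file headers was 494 bp for SORL1-A528T (39736 peaks), 262 for WT and 186 for INPP5D SNP (51212). It was 136 bp for the other replicate 2 lists and 74 bp for all replicate 1 and 3 lists. What part depth or fragment length has in the short WT replicate 2 list was not tested. Peaks on chromosomes Y and M were left out, and peaks sharing 1 bp in any of the 21 lists were merged into 166736 regions.

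No difference between the edited lines and WT in the size or make-up of their open chromatin was larger than the spread between libraries. The edited libraries held 39736 peaks at the lowest, 79714 at the median and 102891 at the highest, and the WT libraries held 96344, 46991 and 95311 peaks. The means were 75904 ± 17808 peaks in the edited lines (SD, n = 18) and 79549 ± 28200 in WT (SD, n = 3), and the exact two-sided permutation test over all assignments of the WT label to 3 libraries gave p = 0.762. The groups overlap, since WT replicate 2 is the second shortest list of all and the other 2 WT lists lie among the longest.

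Gene-end regions are those that reach to 1 kb or less from the start or the finish of a protein-coding gene. Regions at gene ends made up 17.3% ± 2.63 of the regions called in the edited lines (SD, n = 18) and 16.7% ± 3.99 in WT (SD, n = 3; exact permutation p = 0.751). Regions outside genes made up 42.1% ± 1.64 in the edited lines (n = 18) and 42.5% ± 1.67 in WT (n = 3; exact permutation p = 0.695). Likeness, the mean Jaccard index in bp with same-numbered libraries of other lines, was 0.592 ± 0.0570 for edited libraries (n = 18) and 0.5999 ± 0.0616 for WT libraries (n = 3; exact permutation p = 0.815). By replicate number the order of WT among the lines changed. In replicate 1, the edited lists held 69732 to 93198 peaks, all shorter than WT's 96344, while in replicate 2 the edited lists held 39736 to 67861 peaks and 1 of 6 was shorter than WT's 46991. In replicate 3, 4 of 6 edited lists were shorter than WT's. Of 10 library measures tested, the smallest p was 0.383 by the exact permutation test (adjusted p = 0.917), for the percentage of tags in peaks. With the WT label moved within replicate numbers, exact permutation gave p = 0.163 for that measure (adjusted p = 0.829).

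**Figure D1:**
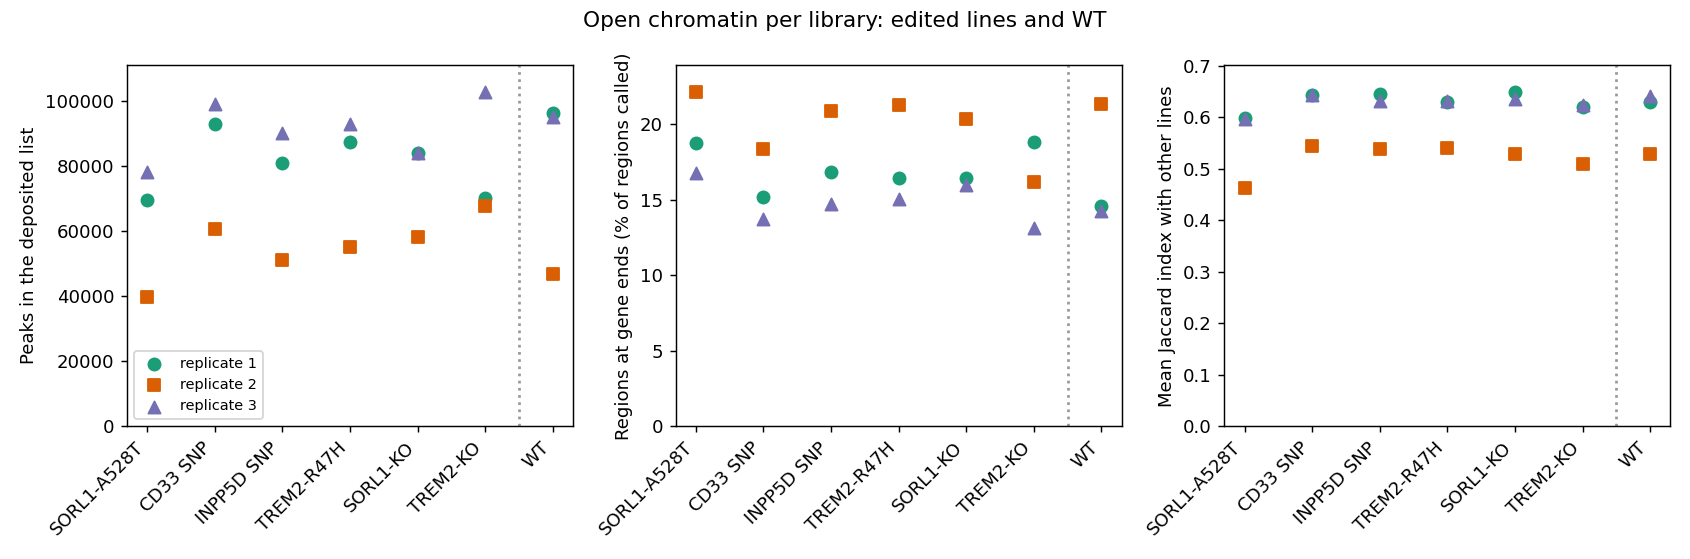
Peaks per list, percentage of called regions at gene ends and mean Jaccard index with other lines, for each of 21 libraries, with the edited lines left of the dotted line and WT right of it; colour and shape give the replicate number. WT replicates 1 and 3 sit with the longer lists and WT replicate 2, like the other shallow libraries, with the shorter ones.

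The WT landscape rested on 42821 regions called in all 3 WT libraries, here the WT core, which is 25.7% of all regions. Another 35148 regions were called in 2 WT libraries, 32506 in 1 and 56261 in none. Of the regions called in 2 WT libraries, 96.4% were missing from WT replicate 2, the shallow one. Without that library 76715 regions were called in every WT library, with 16.5% of them at gene ends, and when peaks had to cover at least 50% of a region the count was 26922. Lists of equal length gave 29062 regions and 29.2%. WT-core regions had a median width of 1278 bp against 501 bp for regions no WT library called. A region is the union of the peaks of every list that calls it, so width can grow with the number of lists calling. Width is therefore no separate trait of the WT core, and a wider region also reaches a gene end more easily. WT-core regions lay at a median of 21.3 kb from a gene end against 58.6 kb. Of the WT core 22.3% lay at gene ends, 38.2% inside genes and 39.5% outside, whereas of the regions WT never called 3.63% lay at gene ends, 40.8% inside genes and 55.5% outside. The distance to the nearest gene end was within 1 kb for 9554 WT-core regions, from 10 to 100 kb for 17636 and over 100 kb for 8912.

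Genes differed widely in how many WT-core regions they held. At least 1 was assigned to 13015 genes, with a median of 2 per gene, and 2235 genes held at least 5. LPP, a focal adhesion protein, held 32 WT-core regions. ROBO2, an axon guidance receptor, held 30 and PDE4B, a phosphodiesterase that degrades cAMP, held 29. These are long genes of 582 to 1743 kb. The dense loci were instead short. Counting only regions inside the gene and away from its ends, a measure chosen after the values were seen, PLEK, the platelet and leukocyte kinase C substrate pleckstrin, had 15.5 WT-core regions per 100 kb and NLRP3, the inflammasome sensor, had 15.3. Each of these 2 values rests on 5 regions. With gene-end and outside regions counted too, PLEK was assigned 12 WT-core regions and NLRP3 8. Edited libraries called 92.6% of the 12 and 97.2% of the 8, where a call is 1 region in 1 of the 18 libraries. Over all WT-core regions they called 93.0%.

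Gene ends were open at 10308 of 19970 protein-coding genes in all 3 WT libraries (51.6%) and closed at 5910 in all 3 (29.6%). Of the 10308 genes, 8451 (82.0%) were also called in all 18 edited libraries. Of the 5910 closed genes, 4835 (81.8%) were closed in all 18. The share of genes open in all 3 WT libraries was lowest on chromosomes 21 (36.0%), 17 (36.7%) and 22 (38.4%) and highest on chromosomes 5 (61.7%), 2 (60.9%) and 3 (60.5%). A share in all 3 WT libraries cannot exceed that of the lowest WT library. Libraries ranged widely on chromosome 17, with gene ends called at 30.8 to 73.4% of its genes in edited libraries. In WT libraries they were called at 36.9 to 69.5% there, against a highest WT value of 69.1% over all genes. The low share of chromosome 17 is therefore not a trait of every WT library. WT libraries ran from 38.6 to 62.3% on chromosome 22 and from 36.0 to 49.0% on chromosome 21.

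The labelled cell type was checked against marker lists. Of 18 microglia genes, 14 had an end called in all 3 WT libraries. CX3CR1 (the fractalkine receptor), P2RY12 (the ADP receptor), CSF1R (the M-CSF receptor), SPI1 and C1QA were called in 18 of 18 edited libraries and 3 of 3 WT libraries. TMEM119, a microglial membrane protein, and SALL1, a microglial transcription factor, were called in 0 of 18 edited libraries and 0 of 3 WT libraries. Of 16 lineage transcription factors 12 were open in all 3 WT libraries. MEF2C, which takes part in the microglial programme, had its ends called in 3 of 18 edited libraries and 0 of 3 WT libraries, although 8 WT-core regions were assigned to it. Among macrophage and monocyte genes 3 of 10 were open in all 3 WT libraries, CD14, CD68 and MRC1.

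Lists of other cell types had few genes open in every WT library, a count that the shallow WT replicate 2 limits. Open in all 3 WT libraries were 0 of 8 pluripotent stem cell genes, 1 of 17 mast cell, erythroid and megakaryocyte genes (KIT, the stem cell factor receptor), 1 of 8 endothelial genes (PECAM1), 1 of 9 mesenchymal genes (PDGFRB) and 1 of 10 neural genes (SNAP25). POU5F1 and NANOG, which hold the pluripotent state, were called in 0 of 18 edited libraries and 0 of 3 WT libraries, as were the mast cell genes CPA3 and TPSAB1. Closed in all 3 WT libraries were 5 of the 8 pluripotent, 11 of the 17 mast cell, erythroid and megakaryocyte, 6 of the 8 endothelial, 4 of the 9 mesenchymal and 7 of the 10 neural genes. Members open in most libraries included COL1A2, a collagen chain called in 17 of 18 edited libraries and 2 of 3 WT libraries, and TWIST1, a mesenchymal transcription factor, and PPBP, a platelet chemokine, each called in 16 of 18 edited libraries and 2 of 3 WT libraries. DNMT3B, a DNA methyltransferase, was called in 13 of 18 edited libraries and 2 of 3 WT libraries. Of 11 lymphoid genes, 4 were open in all 3 WT libraries (CD3D, CD3E, CD8A and EBF1) and 2 were closed in all 3, and the median WT library had 72.7% of the list open against 66.5% of all genes.

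Lists tied to disease and activation were largely open in WT. Of 16 disease-associated microglia genes 11 were open in all 3 WT libraries, as were 19 of 26 genes at Alzheimer risk loci, 9 of 12 inflammatory genes, 9 of 12 interferon response genes, 10 of 12 housekeeping genes and 19 of 21 replication-dependent histone genes of chromosome 6. A gene counts as open through any peak within 1 kb of an end, also one that lies at a neighbouring gene. The 21 histone genes were assigned 12 WT-core regions and 9 of them none, so counts of genes are not counts of open elements. HSP90AB1, a housekeeping gene for a chaperone, was called in 18 of 18 edited libraries and 2 of 3 WT libraries, the shallow WT replicate 2 being the one without a call. SPP1 (osteopontin) and GPNMB, genes that rise in disease-associated microglia, were called in 18 of 18 edited libraries and 3 of 3 WT libraries. PLCG2, a phospholipase downstream of TREM2, held 15 WT-core regions and SLC24A4 had its ends called in 0 of 18 edited libraries and 0 of 3 WT libraries.

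For most lists the median edited and the median WT library had the same share of genes open. Microglia genes with an open end made up 61.1% at the lowest, 88.9% at the median and 88.9% at the highest edited library, and 77.8%, 88.9% and 88.9% in the 3 WT libraries. The WT values lay inside or at the edge of the edited range for every list, all genes included, except the mast cell, erythroid and megakaryocyte list, where 1 WT library reached 35.3% against an edited highest of 29.4%, and the housekeeping list, where 1 WT library had 83.3% and every edited library 100%. The medians differed in 4 lists. They were 54.5% in edited and 72.7% in WT libraries for the lymphoid list, and 18.75% and 25% for the pluripotent list. For the histone list they were 85.7% and 95.2%, and for the neural list 20% and 10%. The edited range is wide, since the 18 libraries differ much in peak number, so lying inside it does not show likeness to WT. No list was tested. Over all genes, 51.6% were open in all 3 WT libraries, which is the share to set the counts of each list against, and 65.7% were open at the median edited library and 66.5% at the median WT library.

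**Figure D2:**
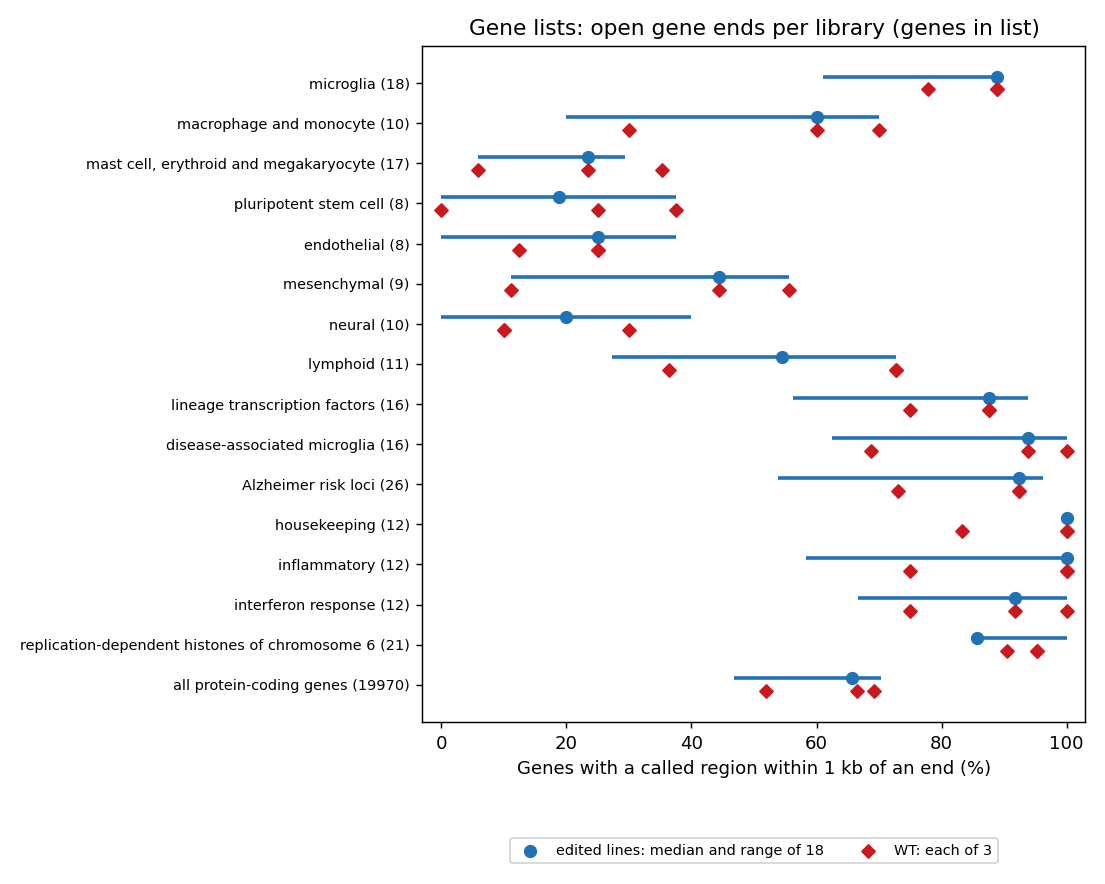
Percentage of genes of each list with a called region within 1 kb of an end: blue line and dot, range and median of 18 edited libraries; red diamonds, the 3 WT libraries, of which equal values overlie each other. The pluripotent, endothelial and neural lists sit low and the microglia and risk-locus lists high in both groups.

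Promoters open in WT were richer in GC and in CpG than closed ones. Over 22129 start-site windows of 15809 genes from RefSeq (GRCh38.p14), 10316 were called in all 3 WT libraries, with a median GC content of 65.2% and 8.43 CpG per 100 bases in the 250 bases before the start. In the 7991 windows called in no WT library these were 53.6% and 2.01. The letters CCGGAAGT, bound by ETS factors, stood in 7.69% of the windows called in all 3 WT libraries, 0.613% of those called in none and 4.41% of all windows, on either strand. GAGGAAGT, the form PU.1 prefers, stood in 2.53% of the windows called in all 3 WT libraries, 1.55% of those called in none and 2.22% of all. TGANTCA, bound by AP-1, ran the other way, with 3.02% of the windows called in all 3 WT libraries, 8.52% of those called in none and 5.35% of all. TATAAA stood in 4.72% of the windows called in all 3, 15.6% of those called in none and 8.997% of all. These motifs differ in base composition, as the windows do, and the part of GC content in these shares was not tested. A match is a run of letters and not a measured site.

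The promoters of TYROBP, the signalling adaptor of TREM2, and of INPP5D, 1 of the edited genes, are shown as examples of windows called in 18 of 18 edited libraries and 3 of 3 WT libraries that hold the PU.1 letters. Capitals mark GAGGAAGT or its reverse complement in the 250 bases before the start, read 5′ to 3′ on the gene's strand, from RefSeq for GRCh38.p14 at chr19:35908296-35908545 (minus strand) and chr2:233060092-233060341 (plus strand).
TYROBP: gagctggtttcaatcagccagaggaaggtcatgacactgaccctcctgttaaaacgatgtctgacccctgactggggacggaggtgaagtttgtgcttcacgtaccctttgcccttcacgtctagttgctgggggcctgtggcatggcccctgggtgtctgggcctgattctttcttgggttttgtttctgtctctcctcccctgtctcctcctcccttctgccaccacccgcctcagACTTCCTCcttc
INPP5D: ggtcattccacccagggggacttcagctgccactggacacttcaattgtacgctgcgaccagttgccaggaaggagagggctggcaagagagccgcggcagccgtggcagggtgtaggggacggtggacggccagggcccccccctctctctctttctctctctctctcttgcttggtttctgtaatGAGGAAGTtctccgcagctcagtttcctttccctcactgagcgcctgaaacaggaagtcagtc

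What the edited lines held in common was the WT core. Of the 26560 regions called in all 18 edited libraries, 25599 (96.4%) were called in all 3 WT libraries, 960 in 2, 1 in 1 and 0 in none. Of the 960, 957 were missing from WT replicate 2 alone. Seen from WT, 59.8% of the 42821 WT-core regions were called in all 18 edited libraries and 91.0% in at least 14. In 41361 WT-core regions (96.6%) no edited line was without a call, and 1044 had no call in exactly 1 edited line. At the other end, 56261 regions were called in edited libraries but in no WT library, and 36149 of these (64.3%) came from a single library.

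**Figure D3:**
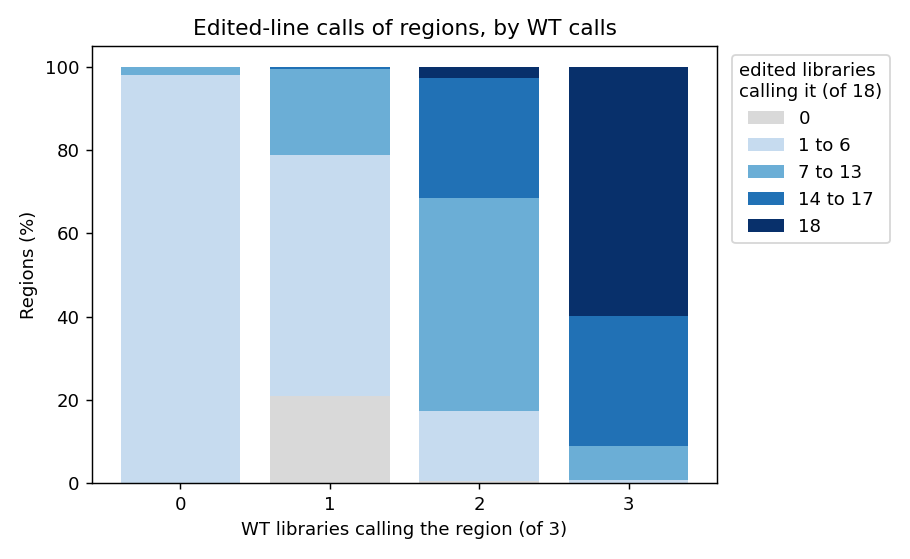
Share of regions by the number of edited libraries (of 18) calling them, for regions called in 0, 1, 2 or 3 WT libraries. Regions of 3 WT libraries are mostly called in 14 or more edited libraries, and regions of 0 WT libraries in 1 to 6.

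No region was called more or less often in the edited lines than in WT after adjustment. Fisher's exact test, two-sided, over 98145 regions called in 2 to 20 libraries, with Benjamini-Hochberg adjustment, called 0 regions lower and 0 higher in the edited lines, 0% of those tested in each direction, with every adjusted p at 1. At an unadjusted p under 0.05 it gave 835 regions called less often in the edited lines (0.851%) and 12 called more often (0.0122%). With lists of equal length these were 198 less often and 61 more often of 38281 tested. Leaving out WT replicate 1, 2 or 3 gave 126, 1091 or 94 less often and 8, 1 or 9 more often. With 3 WT libraries the smallest p this test can give is 0.000752. At this number of regions it passes the adjustment only where many regions share it, and 5 had it. To reach an unadjusted p under 0.05, a region called in 3 of 3 WT libraries may have at most 5 edited calls. A region called in 2 of 3 may have 0 or 1. In the other direction, a region called in 0 of 3 needs at least 13 edited calls, and one called in 1 of 3 needs at least 17. Of the regions called in 3 of 3 WT libraries, 5 had 0 edited calls and 334 had 1 to 6. Most of the 835 were therefore called in 2 of 3. Among regions called in exactly 2 WT libraries, 96.4% were missing from WT replicate 2.

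Of all 166736 regions, 5 (0.003%) were called in 3 of 3 WT libraries and 0 of 18 edited libraries, and 0 (0%) in 0 of 3 WT libraries and 18 of 18 edited libraries. The 5 lay inside MAST4 (a microtubule-associated kinase), SH3BGRL2, VEGFC (a lymphatic growth factor) and TRHDE (an enzyme that degrades thyrotropin-releasing hormone), and 16.6 kb from KCNJ3, a potassium channel. The MAST4 region spans chr5:66814363-66814865, the KCNJ3 region chr2:154680907-154682079, the VEGFC region chr4:176703758-176704513 and the TRHDE region chr12:72141030-72141683, in the coordinates of the deposited lists. All 5 stood low in the WT file order, at a median percentile of 6.09 to 20.5 where 100 is the first peak of a list. When the WT label was moved to 1 library of each replicate number, 0 to 65 regions were called in the 3 chosen libraries and no other, and over all such choices the exact permutation p for 5 or more was 0.122, one-sided.

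Set beside the edited lines taken 1 at a time, WT was not the line with the most regions to itself. The regions called in all 3 libraries of a line and in none of the 18 others numbered 12 for TREM2-R47H, 5 for TREM2-KO, 3 for CD33 SNP, 1 each for SORL1-A528T and SORL1-KO, 0 for INPP5D SNP and 5 for WT. Regions missing from 1 line and called in all 18 other libraries numbered 42 for SORL1-A528T, 7 for TREM2-R47H, 1 each for CD33 SNP, INPP5D SNP, SORL1-KO and TREM2-KO, and 0 for WT. SORL1-A528T also had the shortest list of each replicate number. Leaving out WT replicate 1, 2 or 3 gave 20, 163 or 14 regions in place of the 5, as 2 libraries are easier to match than 3, and without the TREM2-KO line there were 9.

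A looser rule was also applied. In 93 regions (0.0558% of all), 3 of 3 WT libraries made a call and at most 1 of 3 in each edited line. By the same rule, against each other line, there were 195 regions for TREM2-R47H, 168 for CD33 SNP, 98 for TREM2-KO, 59 for SORL1-KO, 18 for INPP5D SNP and 10 for SORL1-A528T, so that 3 edited lines had more than WT. Only 1 of the 93 lay at a gene end, 53.8% lay outside genes, and their median percentile in the WT file order was 16.0 against 73.1 over the WT core. The reverse, 0 of 3 WT libraries and at least 2 of 3 in each edited line, held for 5 regions (0.003%), in KTN1, BAZ2A, SIPA1L1 and POFUT1 and 21.9 kb from ZNF184. The same count was 1184 for SORL1-A528T, 146 for TREM2-R47H, 51 for SORL1-KO, 48 for TREM2-KO, 39 for INPP5D SNP and 2 for CD33 SNP. Leaving out WT replicate 1, 2 or 3 gave 254, 2213 or 186 regions in place of the 93, and 164, 5 or 92 in place of the 5. Without TREM2-KO replicate 2 the 93 became 28, where the rule allows no call in the 2 libraries left of that line, and the other count was again 5. With lists of equal length the counts were 26 and 13.

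The region inside KTN1, which encodes the kinesin receptor kinectin, was called in 16 of 18 edited libraries and 0 of 3 WT libraries (chr14:55582634-55583386; Fisher's exact p = 0.00752, adjusted p = 1). By line, 2 of 3 libraries called it in SORL1-A528T and CD33 SNP and 3 of 3 in each other edited line. A region inside RASGRP3, an activator of Ras and Rap GTPases in leukocytes, was called in 18 of 18 edited libraries and 1 of 3 WT libraries (chr2:33551886-33553353; Fisher's exact p = 0.0143, adjusted p = 1). It was the single region called in all edited libraries and in fewer than 2 WT libraries. Regions in HFM1, a meiotic helicase, and near ZNF184, a zinc finger protein, were each called in 15 of 18 edited libraries and 0 of 3 WT libraries.

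**Figure D4:**
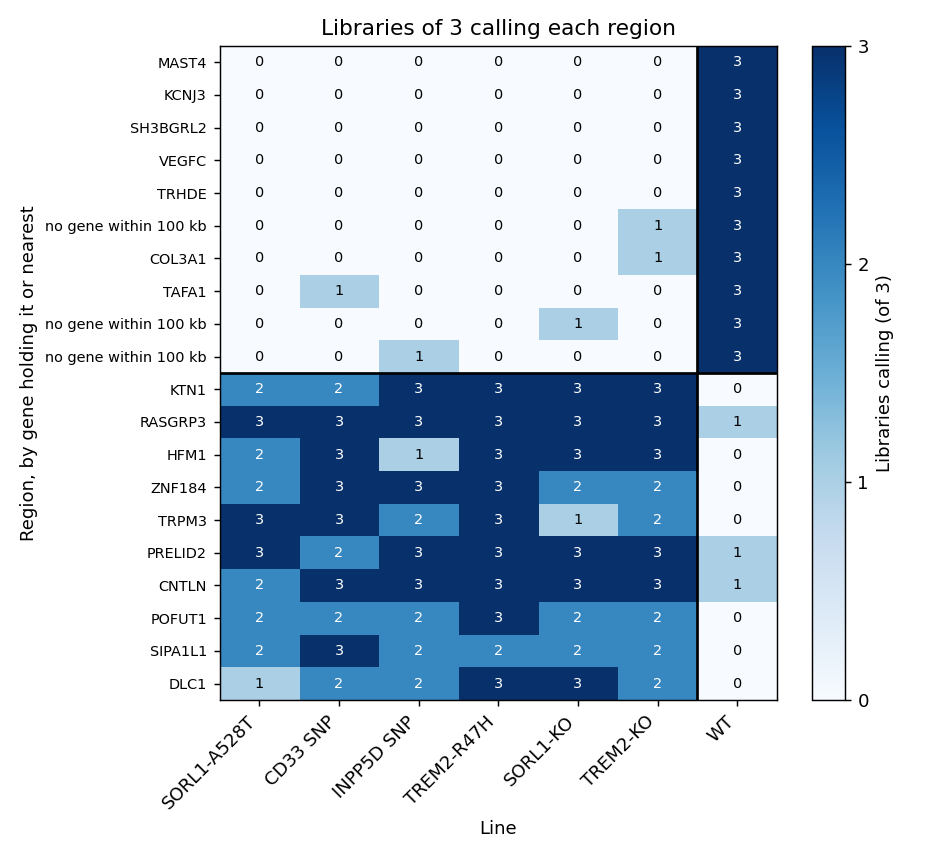
Number of libraries, of 3, that called each of 20 regions, the 10 with the smallest Fisher p in each direction, for the 6 edited lines and WT at the right; the upper 10 were called less often in edited lines and the lower 10 more often. Rows are named by the gene that holds the region or lies nearest, and no region passed the adjustment.

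Taken gene by gene, no gene end was all-or-none between the groups. Of 19970 genes, 14 (0.0701%) had an end called in 3 of 3 WT libraries and at most 8 of 18 edited libraries, and 7 (0.0351%) in 0 of 3 WT libraries and at least 10 of 18 edited libraries, limits chosen after the values were seen. These genes are given as values. DDC, which makes dopamine and serotonin, was called in 5 of 18 edited libraries and 3 of 3 WT libraries (Fisher's exact p = 0.0421, unadjusted). TREML4, a relative of TREM2, was called in 11 of 18 edited libraries and 0 of 3 WT libraries (Fisher's exact p = 0.0902, unadjusted). GRIA2, a glutamate receptor subunit, was called in 10 of 18 edited libraries and 0 of 3 WT libraries (Fisher's exact p = 0.214, unadjusted).

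H2BC3, a replication-dependent H2B histone gene of the cluster on chromosome 6, split the edited lines among themselves rather than from WT, and was picked out after its values were seen. Its end was called in 3 of 3 libraries of INPP5D SNP, SORL1-KO and WT, and in 0 of 3 of SORL1-A528T, CD33 SNP, TREM2-R47H and TREM2-KO. The region covers 2965 bp (chr6:26043086-26046050) and stood at the 77.7 percentile of the WT file order. The 250 bases before its start, chr6:26043714-26043963 in RefSeq for GRCh38.p14 (minus strand), are shown because the line-by-line split falls there. Capitals mark CCAAT and TATAAA on either strand, 5 matches in all.
H2BC3: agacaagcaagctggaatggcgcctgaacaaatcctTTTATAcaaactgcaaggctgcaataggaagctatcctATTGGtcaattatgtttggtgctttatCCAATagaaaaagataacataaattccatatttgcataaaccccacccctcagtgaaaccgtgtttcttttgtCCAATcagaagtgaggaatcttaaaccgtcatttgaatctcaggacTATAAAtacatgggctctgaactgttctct
CCAAT stood in 36.8% of the windows called in all 3 WT libraries and 32.7% of all windows. Neighbouring histone genes such as H2BC4, H3C2 and H4C3 were called in 18 of 18 edited libraries and 3 of 3 WT libraries, and H3C3 in 6 of 18 edited libraries and 2 of 3 WT libraries. No region was assigned to H3C3 itself. Its calls come from a region assigned to another gene, which may be that of H2BC3, so they are no second case.

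Over all regions of a gene, no difference passed. The depth-adjusted call of a region takes away what regions of equal recurrence average in that library, and it was averaged over each gene's regions, so that 0 means calls at the rate the library's depth gives. In limma over 8423 genes with at least 5 regions, 0 genes were lower and 0 higher in the edited lines after Benjamini-Hochberg adjustment at 0.05 (0% in each direction), and 140 lower (1.66%) and 76 higher (0.902%) had an unadjusted p under 0.05. With gene-end regions alone the balance turned, with 175 lower and 363 higher of 7361 genes at that p, and 2 lower (HTRA3 and P2RX3) and 0 higher after adjustment. There 1 region was enough for a gene to be tested, and each of these 2 genes rests on 1 region. Its call is close to yes or no per library, to which limma's normal model is not suited, so the 2 are not read as changed. No region passed in Fisher's exact test. The genes named next had the smallest p in each direction and are given as values.

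SLC4A5, a bicarbonate transporter, had depth-adjusted calls of -0.24 at the lowest, -0.05 at the median and 0.24 at the highest edited library, and 0.29, 0.18 and 0.30 in the WT libraries. In limma the difference was -0.30 (SE 0.07, adjusted p = 0.626), with 17 of 18 edited libraries below all 3 WT libraries. NAA35, part of the NatC acetyltransferase, ran from -0.23 through a median of -0.05 to 0.20 in edited libraries, and the WT libraries stood at 0.22, 0.23 and 0.24. All 18 edited libraries lay below WT there, and the difference in limma was -0.27 (SE 0.06, adjusted p = 0.626). KDSR, an enzyme of sphingolipid synthesis, likewise had all 18 edited libraries below the 3 WT libraries, with a limma difference of -0.28 (SE 0.06, adjusted p = 0.626). Each of these 3 genes rests on 5 regions. HSPB3, a small heat shock protein with 15 regions, ran from -0.11 to 0.05 in edited libraries against 0.16, 0.06 and 0.18 in WT. FCER1A, the IgE receptor chain of mast cells, showed a wide WT spread, with 0.20, -0.02 and 0.61 in the WT libraries and a median of -0.04 in edited libraries.

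In the other direction, LOC112267855 stood at 0.06 at the median edited library and at -0.11, -0.19 and -0.49 in the WT libraries, with 15 of 18 edited libraries above all 3. The difference in limma was 0.31 (SE 0.08, adjusted p = 1.00), and 0.19 without WT replicate 3. WWC3, a relative of the Hippo pathway protein KIBRA, stood at 0.02 at the median edited library and at -0.17, -0.05 and -0.24 in the WT libraries. IFNGR2, a chain of the interferon gamma receptor, stood at 0.01 at the median edited library and at -0.10, -0.38 and -0.10 in WT, with 17 of 18 edited libraries above WT. TMOD2, a tropomodulin, also had 17 of 18 edited libraries above WT, and YTHDF2, which reads methylated adenosine in RNA, had 15. NLRP3, a member of the inflammatory list, was the only one of its 11 tested members with an unadjusted p under 0.05 in limma (difference 0.12), and it did not pass the adjustment.

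**Figure D5:**
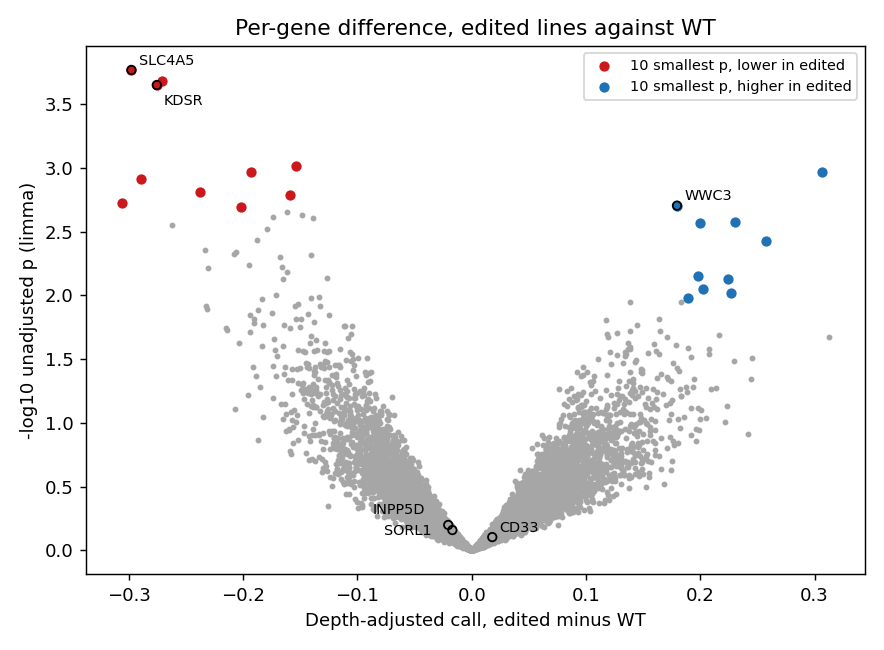
Difference in depth-adjusted call, edited minus WT, against -log10 of the unadjusted limma p for 8423 genes; red and blue mark the 10 genes with the smallest p lower and higher in the edited lines. SORL1, CD33 and INPP5D sit near 0, and no gene passed the adjustment.

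By list, the median difference over tested members was 0.02 for 9 microglia genes, 0.03 for 15 lineage transcription factors, 0.01 for 20 genes at Alzheimer risk loci and 0.04 for 11 inflammatory genes, beside 0.00 over all 8423 genes. Members with an unadjusted p under 0.05 in limma were few: NLRP3, higher, in the inflammatory list and FCER1A, lower, in the mast cell, erythroid and megakaryocyte list. Over 23 chromosomes, limma called 0 (0%), and the smallest adjusted p was 0.867.

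The edited genes themselves were mostly open in lines with and without the edits. In the lines edited at the gene, an end was called in 3 of 3 libraries for TREM2 (both lines), INPP5D and CD33. For SORL1 it was called in 3 of 3 libraries of SORL1-KO and 2 of 3 of SORL1-A528T. The counts that follow pool all edited libraries, most of which are not edited at the gene named. TREM2 had an end called in 17 of 18 edited libraries and 3 of 3 WT libraries, and INPP5D in 18 of 18 edited libraries and 3 of 3 WT libraries. SORL1 was called in 16 of 18 edited libraries and 3 of 3 WT libraries, and CD33 in 17 of 18 edited libraries and 2 of 3 WT libraries. APOE, the lipid carrier with the strongest common Alzheimer risk alleles, was called in 9 of 18 edited libraries and 1 of 3 WT libraries. By line, APOE was called in 2 of 3 libraries of INPP5D SNP, TREM2-R47H and SORL1-KO and in 1 of 3 of SORL1-A528T, CD33 SNP, TREM2-KO and WT. SORL1 held 37 regions, 15 of them in the WT core, and edited libraries called 24.3% of the 37 at the lowest, 55.4% at the median and 75.7% at the highest, against 67.6%, 40.5% and 64.9% in the WT libraries. INPP5D held 23 regions, 11 of them in the WT core. The depth-adjusted difference in limma was -0.02 (SE 0.04) for SORL1, 0.02 (SE 0.07) for CD33 and -0.02 (SE 0.04) for INPP5D, each with an adjusted p of 1.00. TREM2 and APOE, with 4 and 2 regions, had too few to be tested. Peak lists show no sequence change, so these calls do not check the edits.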

How the data were processed

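The deposited files are ATAC-seq peak lists, 1 per library. Per the file headers, HOMER findPeaks called peaks in histone style in each library without a control, using peaks of 500 bp at least 1000 bp apart, a 4.00-fold excess over the local 10000 bp and a Poisson p of 1.00e-04 there. The score column holds 1 for every peak as deposited, so positions and file order are what is known and no height was tested. Tools per the submitters' processing notes were cutadapt 1.18, STAR 2.7, HOMER 4.10 and DESeq2, whose role, like any shift for the transposase, is not stated in the sources used.

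No source used here names the build. Start sites of the RefSeq promoter table (GRCh38.p14) lay under a region of all 21 libraries in 35.3% of 22131 cases, and in 0.809 to 1.32% when shifted by 2 or 10 kb. That table has strand but not every gene; the RefSeq gene table has every gene used and no strand, so either gene end was used. Regions went to the nearest gene within 100 kb. Of 1604926 peaks, 0.0821% on chromosomes Y and M were left out, as were 2 promoter windows with other letters.

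Groups are GEO's titles. Genes were tested with limma 3.58.1 (R 4.3.3) in a 2-group model and regions with Fisher's exact test (Python 3.11.15, scipy 1.17.1), and both used Benjamini-Hochberg adjustment at 0.05. Library measures used exact permutation. The gene test was tried on simulated data with 200 changed genes, in which calls varied by depth and recurrence only. With 0.3 taken from the WT call rate 43 of 92 tested genes (46.7%) passed, and with 0.5 taken 68 of 90 (75.6%). Of 7688 unchanged genes 8 passed. A gene with a difference of such size can therefore be missed. Named genes were the edited genes, APOE and, as none passed, the 10 with the smallest p per direction; named regions were the 10 with the smallest p per direction. The members, lists and rules were chosen with earlier results of these data known. Some genes that the naming rules pick are not reported here.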

Additional observations from a re-analysis of the deposited data

How the results depend on the processing

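No gene, region or chromosome passed under any alternative, except HTRA3 and P2RX3, lower in the edited lines (adjusted p = 0.0208 in limma), when gene-end regions alone were used, which gave 2 genes. Each rests on 1 region called in 0 of 18 edited libraries and in 2 of 3 WT libraries, not WT replicate 2. Over all regions 182 had 2 WT calls and 0 edited calls. As limma's normal model is not suited to the call of 1 region, the 2 genes are not read as changed. The alternatives were the replicate block, peaks covering at least 50% of a region, lists of equal length (39711 peaks) and no filter on recurrence. Also used were a mean fitted per line, regions called in at least 2 libraries, and at least 10 or 1 regions per gene. Left out in turn were each replicate number, WT replicate, edited line and, chosen after seeing the data, TREM2-KO replicate 2. The fit per line set WT against the average of the edited lines with libraries as units. Its error holds the spread within lines and not the spread between them. Likeness has no value for 50% cover or equal lists.

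Replicate numbers were not taken as pairs, since not every same-numbered pair of libraries correlated over 0.1: 47 of 63 did (mean 0.192, -0.0662 to 0.589), against 24 of 126 pairs of other number and line (mean -0.0933), and 14 of 21 libraries were closest to their own number. Same-numbered libraries were thus more alike on average, and the spread in the unblocked tests includes differences between replicate numbers. With the replicate block, limma again called 0 genes, with 170 lower and 145 higher at an unadjusted p under 0.05. The differences keep their values under the block by design, since every line has 1 library of each number. They were -3644 peaks (p = 0.545 by exact permutation), 0.556 points at gene ends (p = 0.603 by exact permutation), -0.432 points outside genes and -0.00747 in likeness.

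Leaving out replicates moved the edited-minus-WT difference from -19923 to 4753 peaks, -0.690 to 2.86 points at gene ends, -1.40 to 0.470 points outside genes and -0.0435 to 0.0120 in likeness. Without the SORL1-A528T line likeness turned to 0.00287. Regions of 3 of 3 WT and 0 edited libraries ranged from 6 to 212, those absent in WT and called in every edited library from 0 to 4, the looser WT-side count from 28 to 2213 and its reverse from 0 to 164. With lists of equal length these were 1, 0, 26 and 13. The WT-only count was 9 without TREM2-KO, the looser count 154 without CD33 SNP and 166 without TREM2-KO. The reverse count was 10 with 50% cover, 20 without SORL1-A528T, 10 without INPP5D SNP, and 9 without SORL1-KO or TREM2-KO. The differences for CD33 (-0.00465 to 0.0406), SORL1 (-0.0389 to 0.0237) and INPP5D (-0.0820 to 0.00641) crossed 0 when replicates were left out. CD33 was -0.0378 with 50% cover, and INPP5D 0.00304 with 50% cover, 0.0761 with equal lists and 0.194 with gene-end regions alone. The cause was not tested. Shallow replicate 2 limits what WT can be said to lack.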
